A study of Rattus norvegicus with 5 samples.

Results

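The response of the rat parotid gland was measured 60 min after an intraperitoneal injection of isoproterenol and set against the gland after normal saline. The comparison used 3 of the series' 5 arrays, which were the arrays of control rat 1, control rat 2 and the single rat taken at 60 min. All were male Sprague-Dawley rats of 2 to 3 months with no transgene named, and the drug dose is labelled as 20 mg per g of body weight, a unit that could not be checked here. The labels do not say how long after saline the controls were taken. Each array held RNA of the parotid glands of 1 rat, so the 60 min values have no replicate and every difference below is that of 1 treated rat from 2 saline rats. Of 22517 probes on the bead array, 10495 had a detection p under 0.01 on at least 1 of the 3 arrays and were compared, and 7604 of these carried a gene symbol, for 7465 genes.

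Isoproterenol is an agonist of beta-adrenergic receptors. In parotid acinar cells these receptors raise cyclic AMP and activate protein kinase A, which drives release of granules filled with amylase and proline-rich proteins, and repeated doses enlarge the gland. The kinase also phosphorylates the transcription factor CREB, which binds the cyclic AMP response element (CRE) and turns on early genes within the hour, some of which encode factors that shut the signal off again. A parotid sample also holds ducts, myoepithelial cells, fat, vessels, nerve and connective tissue.

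The arrays carried the transcripts of parotid acini. Amylase Amy1 read 34028 and 34862 in the controls and 34028 at 60 min, on a scale whose top value was 40815 on each array. The secretory proteins Bpifa2, Pip and Dnase1 read 37278, 32511 and 35239 at 60 min, also near the top, where the scale leaves little room to show a change. The 3 arrays detected 40.4% to 42.0% of their probes. Control 1 stood apart by skeletal muscle transcripts: the summed intensity of 18 muscle markers was 60117 in control 1, 5936 in control 2 and 8357 at 60 min. Skeletal actin Acta1, for example, read 16479 and 368 in the controls and 1830.0 at 60 min. The median difference of the muscle list from the controls was -0.47 log2 units against both controls, 1.59 against control 2 alone and -3.12 against control 1 alone, so no direction is given for it.

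Differences are in log2 units after background correction and quantile normalization, as the 60 min array minus the mean of both controls. They exceed the ratio of the printed intensities for dim probes, because the intensities still hold background. A probe was counted as risen or fallen if limma's moderated test, which took its spread from the 2 controls and from all probes, gave a Benjamini-Hochberg adjusted p under 0.05 over the 10495 probes. The single treated rat is thereby assumed to vary as the controls do, and the p-values measure distance from these controls. A second count, by size, took the probes that differed at least 2-fold from the control mean and lay farther from the nearer control than the controls lay from each other.

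By limma 2639 probes (25.1%) differed at 60 min, of which 1408 (13.4%) were higher and 1231 (11.7%) lower. Of the 10495 tested probes, 4487 had an unadjusted p under 0.05. No probe passed when all 22517 probes entered the test, although 5628 then had an unadjusted p under 0.05. By size 2186 probes (20.8%) differed, 1261 (12%) up and 925 (8.81%) down. Both counts held 1212 risen and 876 fallen probes. The large changes were mostly rises: 231 probes lay at least 2 log2 units above the control mean, and beyond the gap between the controls, and 54 lay as far below. At 4 log2 units these counts were 10 and 2. The controls themselves differed by 2 units or more at 65 probes and by 4 or more at 20. Over all tested probes the median absolute difference at 60 min was 0.51, against a median gap of 0.20 between the controls.

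The shares of calls differed with brightness. Of 3791 probes with a control mean under 6 log2 units, 17.1% rose and 3.75% fell. Between 8 and 10 units 9.76% rose and 16.9% fell. Of the 58 brightest, at 14 units and above, 1 passed the test, a fall. These shares are descriptions, since a probe at background cannot fall and a probe dim in the controls could enter the test through the 60 min array alone. The controls were not evenly placed within the response. Control 2 read higher than control 1 at 52.5% of all tested probes, at 89.9% of the 1212 risen probes and at 26.1% of the 876 fallen ones, so control 2 lay nearer to the 60 min array than control 1 did. The correlation with the 60 min array over tested probes was 0.892 for control 1 and 0.932 for control 2, and 0.977 between the controls. What part this has in the results was not tested, and values of both controls are therefore printed throughout.

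**Figure D1:**
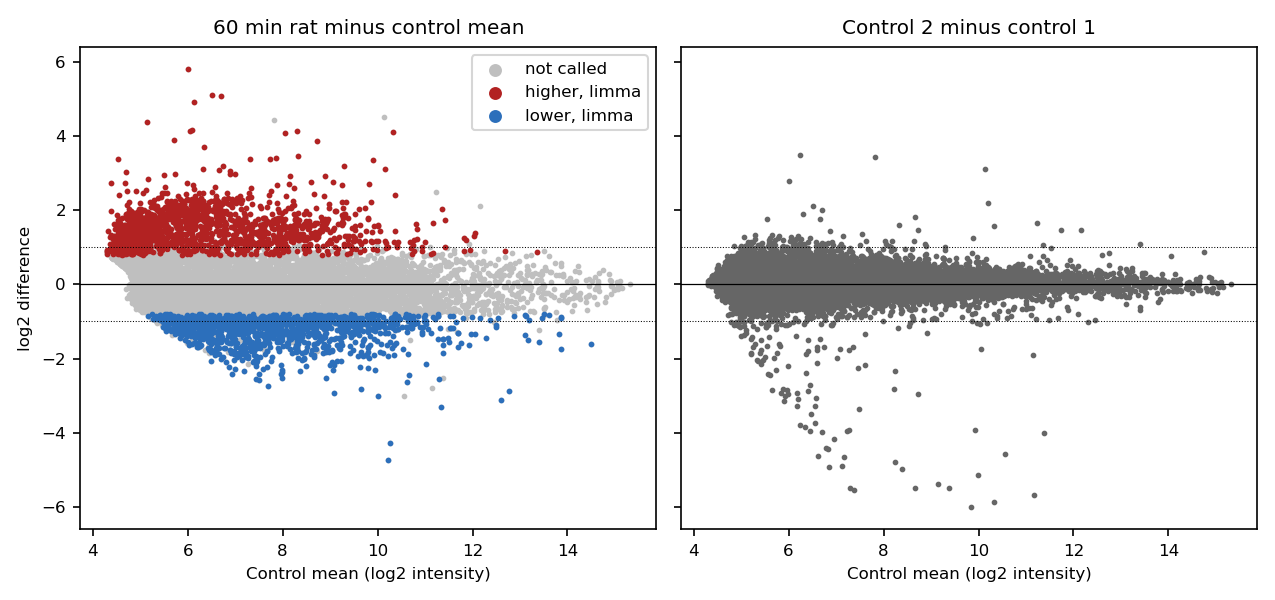
Left, log2 difference of the 60 min rat from the control mean for each tested probe against the control mean (log2), coloured by limma's call; right, control 2 minus control 1 for the same probes on the same axes. Dotted lines mark 1 log2 unit. The control gaps reach below -4 at a group of probes that includes the muscle genes, while most of the large differences at 60 min are rises.

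The gene with the largest rise was Crem, which encodes the CRE modulator and its short repressor form ICER, a feedback inhibitor of cyclic AMP signalling. Its intensity was 93.0 and 238 in the controls and 3170.2 at 60 min, a difference of 5.10 ± 0.85 (SE; limma, adjusted p = 0.0285) or 34.3-fold. The controls lay 2.11 log2 units apart, and the difference was 6.16 from control 1 and 4.05 from control 2. A second Crem probe rose as well, by 4.36. In the single rats taken earlier the first probe read 93.5 at 10 min and 708 at 30 min after isoproterenol, the latter above both controls and below the 60 min value.

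Gadd45b, a stress-inducible regulator of growth arrest and DNA demethylation, came next with 95.6 and 155 in the controls and 2172 at 60 min, a rise of 4.92 ± 0.51. Its relatives Gadd45g (896 and 1013 in the controls and 5883 at 60 min) and Gadd45a (176 and 182 in the controls and 336 at 60 min) rose by 2.69 and 1.15. All 3 Gadd45 genes thus stood above both controls, and with Ptp4a1 and the cyclin Ccnl1 they were the 5 rises, beside 1 fall, among 23 cell cycle and growth genes. Calls in that list made a share near the 24% of all tested genes. Among transcription factors, the AP-1 subunit Junb read 296 and 449.6 in the controls and 5598 at 60 min and the orphan nuclear receptor Nr4a2 read 233 and 437 in the controls and 4524 at 60 min, rises of 4.14 and 4.07. The pluripotency and epithelial factor Klf4 read 230.2 and 351 in the controls and 2527 at 60 min, and Nfil3, a basic leucine zipper repressor with circadian roles, read 235 and 606 in the controls and 3574 at 60 min. In each of these 4 the printed intensity of the treated rat was at least 5.90 times that of the nearer control.

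The phosphatase Dusp1, which inactivates MAP kinases, reached 21954 from 789 and 2249. The phosphatase Ptp4a1 read 302 and 748 in the controls and 6177 at 60 min, and the salt-inducible kinase Sik1, which restrains CREB coactivators, read 182 and 243 in the controls and 1725 at 60 min. Their differences were 4.10 ± 0.65, 3.87 ± 0.61 and 3.39 ± 0.30 (limma, adjusted p of 0.0284, 0.0284 and 0.0280). The Ras-like GTPase Rasl11b read 108 and 162 in the controls and 1105 at 60 min and the single-stranded DNA-binding protein Nabp1 read 101 and 134 in the controls and 1212 at 60 min. Amino acid supply was represented by Slc7a5, the light chain of the leucine transporter LAT1, with 96.4 and 148 in the controls and 1266 at 60 min, and by Eprs1, the glutamyl-prolyl-tRNA synthetase, with 217 and 318 in the controls and 2261 at 60 min. Rd3l, a little characterised relative of a retinal protein, read 85.3 and 124 in the controls and 824 at 60 min. Igfals, the acid-labile subunit of the insulin-like growth factor complex, read 55.5 and 75.5 in the controls and 286 at 60 min. It was not detected in the controls and was at least 7.14-fold higher on the background-corrected scale, which holds for all such bounds below. Its printed intensity at 60 min was 3.79 times that of control 2.

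In all 15 leading rises control 2 was above control 1 and the treated rat above both, and the smallest of the 15 changes against the nearer control was 6.33-fold. The rises of Crem, Dusp1 and Nfil3 lost the adjusted threshold, with the same size, when limma's prior was fitted robustly.

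**Figure D2:**
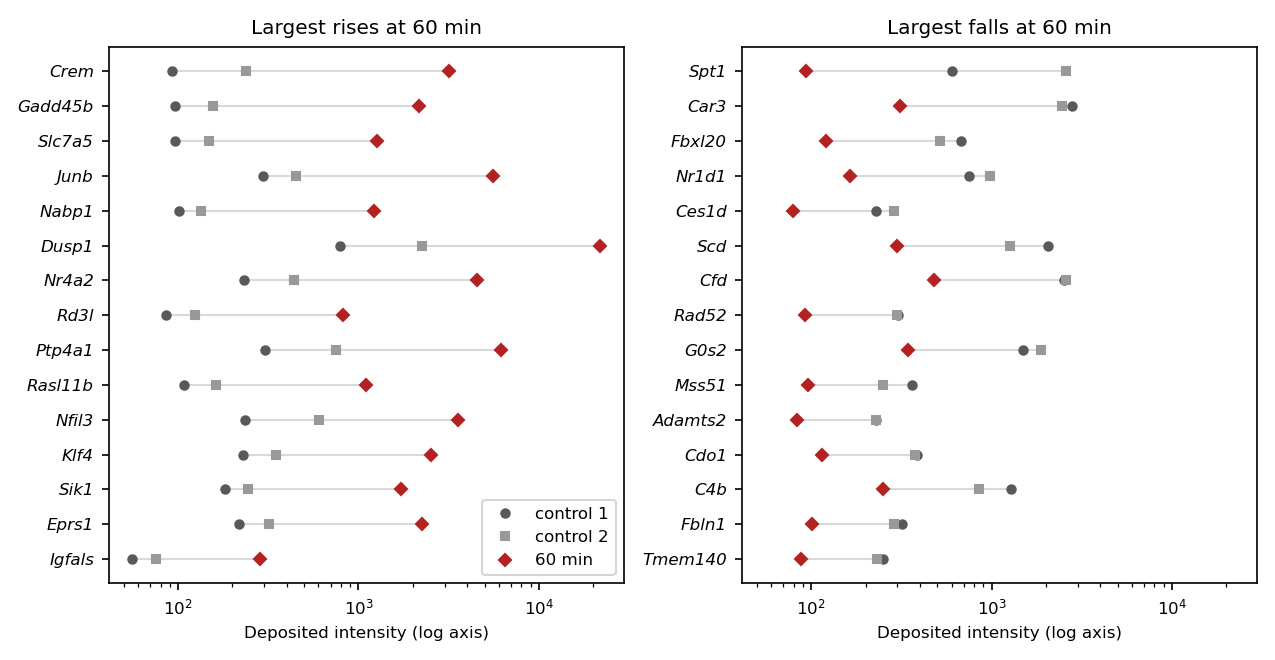
Deposited intensity (log axis) on each of the 3 arrays for the 15 named genes with the largest rise (left) and the 15 with the largest fall (right), 1 point per rat. The 60 min point lies above both controls for every risen gene and below both for every fallen one, and the controls lie farthest apart for Spt1 (606 and 2570.2).

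Promoters of genes that rose are shown because CREB and serum response factor are the textbook routes to early induction. The 300 bases run from 250 before to 50 after 1 annotated start per gene, 5′ to 3′ on the gene's strand, from RefSeq on rat build GRCr8, and Crem's internal ICER promoter is not among them. Capitals mark the CRE letters TGACGTCA, the CRE half-site TGACG on either strand (CGTCA on the opposite one; a full CRE holds a half-site on each strand) and, in Egr1, the CArG box. Crem, Dusp1 and Sik1 are leading rises, Ppargc1a and Egr1 also rose, and the 5 were picked after the motifs of these genes had been seen. The windows lie at chr17:58933816-58934115 (plus strand), chr10:17184603-17184902 (plus), chr20:9958597-9958896 (minus), chr14:63634058-63634357 (plus) and chr18:26736828-26737127 (plus).
Crem: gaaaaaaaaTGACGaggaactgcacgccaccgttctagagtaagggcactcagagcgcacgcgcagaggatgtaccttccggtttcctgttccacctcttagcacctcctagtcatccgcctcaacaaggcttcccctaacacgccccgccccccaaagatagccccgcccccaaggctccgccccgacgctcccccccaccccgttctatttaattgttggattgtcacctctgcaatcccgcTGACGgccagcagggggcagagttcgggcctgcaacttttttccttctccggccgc
Dusp1: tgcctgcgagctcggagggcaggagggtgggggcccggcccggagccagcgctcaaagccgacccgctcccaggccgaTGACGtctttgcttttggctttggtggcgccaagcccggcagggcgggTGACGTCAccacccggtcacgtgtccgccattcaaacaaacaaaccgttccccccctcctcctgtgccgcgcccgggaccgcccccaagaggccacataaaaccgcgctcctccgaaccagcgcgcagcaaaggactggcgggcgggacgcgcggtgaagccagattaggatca
Sik1: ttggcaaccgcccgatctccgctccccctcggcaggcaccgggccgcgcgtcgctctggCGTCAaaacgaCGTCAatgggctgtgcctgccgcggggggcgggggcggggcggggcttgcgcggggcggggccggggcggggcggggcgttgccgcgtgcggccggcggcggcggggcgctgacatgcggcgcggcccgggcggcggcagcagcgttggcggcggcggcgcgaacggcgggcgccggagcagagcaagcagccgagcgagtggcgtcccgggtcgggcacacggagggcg
Ppargc1a: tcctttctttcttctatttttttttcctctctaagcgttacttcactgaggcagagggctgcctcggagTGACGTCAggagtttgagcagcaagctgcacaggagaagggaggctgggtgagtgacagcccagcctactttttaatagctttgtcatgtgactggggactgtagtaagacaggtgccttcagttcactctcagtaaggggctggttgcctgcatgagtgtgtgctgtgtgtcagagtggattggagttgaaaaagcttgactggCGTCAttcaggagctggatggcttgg
Egr1: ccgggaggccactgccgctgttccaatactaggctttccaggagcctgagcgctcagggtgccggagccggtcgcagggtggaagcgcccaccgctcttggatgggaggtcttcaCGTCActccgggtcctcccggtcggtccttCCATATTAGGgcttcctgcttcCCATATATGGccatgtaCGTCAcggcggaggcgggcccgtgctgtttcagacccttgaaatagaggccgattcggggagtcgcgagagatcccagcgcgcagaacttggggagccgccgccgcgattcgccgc

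In these windows Dusp1 had a full CRE beginning 124 bases before the start, with a half-site at 172, and Ppargc1a had one beginning 181 bases before it, with a half-site after the start. Crem had half-sites 241 and 6 bases before its start, and Sik1 had 191 and 180. Egr1 had 2 CArG boxes, 105 and 83 bases before the start, between half-sites at 135 and 66. The half-site occurred in 10 of the 15 leading rises, against 32.3% of 6224 tested genes with a promoter in the table and 22.0% of all 27457 promoters. It was no commoner among the 629 genes risen by both counts, at 30.4%, or the 508 fallen, at 27.0%. The full CRE occurred in 3.34% of the risen and 1.57% of the fallen genes, against 2.99% of those tested. The CArG box occurred in 0 of the 15 leading rises. Its shares were 0.954% of the risen and 0.787% of the fallen genes, against 1.16% of those tested. A match of letters is a description and not evidence of binding.

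The cyclic AMP and protein kinase A genes included the leading Crem and Sik1. Of 39 on the array 25 were tested, and 4 rose and 2 fell, where 11.8% of all 7465 tested genes rose and 12.2% fell (24% in all). This list's share of calls was near that of all tested genes, and the same background applies to every list below. Besides Crem and Sik1, Rgs2, which damps G-protein signals, rose from 955 and 1018 to 2531 (difference 1.41), and the beta-3 adrenergic receptor Adrb3 rose by 1.10. Rgs4, a relative of Rgs2, fell by 1.84, from 193 and 173 to 86.2. The kinase inhibitor Pkig fell by 1.04. The phosphodiesterases Pde4b and Pde4d, which degrade cyclic AMP, differed by -0.04 and 0.19 and did not pass the test. The list's median was 0.16, and 0.02 against control 2 alone, beside -0.12 for all tested genes.

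Of 15 tested MAP kinase feedback genes 6 rose, 4 with the robust prior, and 1 fell. The nuclear phosphatase Dusp5 read 105 and 236 in the controls and 911 at 60 min and rose by 3.08 ± 0.72, though the call was lost with the robust prior. Dusp8, a phosphatase for JNK and p38, rose on both of its probes, by 2.54 on one and, on the other, which was not detected in the controls, to at least 1.50-fold higher. Spry4 and Spred2, inhibitors of Ras and Raf signalling, rose by 1.80 and 1.62. Rasa1, a Ras GTPase-activating protein, fell by 1.26. The relatives Dusp6 and Dusp10 differed by -0.29 and -0.55 without passing.

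Genes of the EGF receptor family were listed together with other growth factors, such as Gdf15 and Fgf21. Errfi1, an inducible inhibitor of the EGF receptor, read 257 and 314 in the controls and 1550.5 at 60 min and rose by 2.68 ± 0.25. The ligand Tgfa read 136 and 188 in the controls and 372 at 60 min and rose by 1.56, and the stress cytokine Gdf15 read 91.9 and 95.1 in the controls and 294 at 60 min and rose by 2.47. The EGF receptor Egfr was detected at 60 min alone and was at least 2.13-fold higher. Of 12 tested genes for EGF receptors and growth factors 5 rose, the last of them Fgf21, by 1.13. Egf itself differed by 0.49 and Erbb2 by -0.62 (limma, adjusted p = 0.259 and 0.0965).

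Immediate-early genes of the AP-1, EGR and NR4A families gave 6 rises among 14 tested. After Junb and Nr4a2 came Egr1, a zinc finger factor, which read 178 and 205 in the controls and 737 at 60 min. Fos, the partner of Jun, read 79.6 and 70.3 in the controls and 124 at 60 min, was detected at 60 min alone and was at least 2.26-fold higher. Ier2 and the matricellular protein Ccn1 rose by 0.94 and 0.82. Nr4a3, another receptor of this family, read 118 and 786 in the controls and 4879 at 60 min, but its controls lay far apart and its difference of 4.42 ± 1.36 did not pass (limma, adjusted p = 0.0714). Jun differed by -0.65, Nr4a1 by 0.34 and Egr2 by 0.45, none past the test.

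Other inducible factors went both ways, with 8 rises and 4 falls among 33 tested. Bhlhe40, a repressor, rose from 145 and 174 to 349. Klf2 and Cebpb rose by 1.30 and 1.15, and Atf3, a stress-induced repressor undetected in the controls, was at least 2.18-fold higher. Atf1, a sister of CREB, rose by 0.92. The falls were of Klf10 (-1.23), the differentiation inhibitor Id2 (-1.06), the Notch target Hes1 (-0.87) and Sox4, which was at least 2.29-fold lower. Myc differed by 0.63 and missed the threshold (limma, adjusted p = 0.0898).

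Clock genes contained large changes in both directions. Nr1d1, the nuclear repressor REV-ERB alpha, read 751 and 977 in the controls and 163 at 60 min and fell by 2.82 ± 0.26. Per1, a period gene with a known cyclic AMP response, read 399 and 516 in the controls and 2231 at 60 min and rose by 2.43 ± 0.26. The deubiquitinase Usp2, which acts on clock proteins, read 493 and 619 in the controls and 2288 at 60 min, and the kinase Csnk1d rose by 1.35. The output factor Tef fell by 1.58. Together with Nfil3 and Bhlhe40 this made 5 rises and 2 falls among 10 tested genes, while Per2, Cry1 and Dbp differed by 0.79, 0.74 and -0.54 without passing. The time of day at which each rat was killed is not labelled, so time of day and treatment cannot be told apart here.

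Genes that glucocorticoids also induce gave 5 rises and 1 fall among 11. Of the rises 3 were already named. The others were Ddit4, an inhibitor of mTOR, which read 392 and 551 in the controls and 1772 at 60 min, and the kinase Sgk1, which read 441 and 577 in the controls and 1414 at 60 min. The fall was of Lcn2, which read 13395 and 8809 in the controls and 3753 at 60 min, by 1.55. Fkbp5, a sensitive glucocorticoid target, differed by -0.49 and Klf9 by -0.05. Fasting and insulin genes were mixed as well, with 2 rises (1 where detection on 2 arrays was required) and 3 falls among 17. Ppargc1a, the PGC-1 alpha coactivator, read 106 and 91.4 in the controls and 233 at 60 min and rose by 1.91 ± 0.27. Irs2, an insulin receptor substrate, was detected at 60 min alone and was at least 2.04-fold higher, whereas Pck1, the gluconeogenic enzyme, was at least 1.92-fold lower and the binding proteins Igfbp3 and Igfbp2 fell by 1.25 and 1.11.

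Control of mRNA stability and chromatin changed at single genes. Noct, listed here among mRNA decay regulators, read 1181 and 1569 in the controls and 7033 at 60 min and rose by 2.41. Zfp36, which destabilises AU-rich messages, read 253 and 221 in the controls and 617 at 60 min and rose by 1.60. Its relative Zfp36l1 fell by 1.03, and the mRNA decay list as a whole had 4 rises and 4 falls among 21. The histone demethylase Kdm4a and the DNA-binding protein Arid5a rose by 2.02 and 2.04, while the demethylases Kdm6b and Kdm5b fell by 1.10 and 1.05, out of 3 rises and 2 falls among 16 chromatin genes. The small GTPases Rasd1 and Rhob joined Rasl11b, with rises of 1.52 and 1.37 in a list with 3 calls of 12. The E3 ligase Siah2, active in hypoxic signalling, rose by 1.75, and with Usp2 it made 2 rises and 1 fall among 23 ubiquitin and autophagy genes.

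Amino acid transporters had 5 rises and 3 falls among 22 tested of 30 on the array, with a median of 0.57 that was 0.36 against control 2 alone. The 3 neutral amino acid carriers of the Slc38 family that passed rose to a like extent: Slc38a1 read 395 and 442 in the controls and 1082 at 60 min, Slc38a2 read 4058 and 4561 in the controls and 11214 at 60 min and Slc38a4 read 379 and 483 in the controls and 1137 at 60 min. The neutral carrier Slc1a4 rose by 0.85. The cystine carrier Slc7a11 differed by 1.54 and Slc3a2, the heavy chain that pairs with Slc7a5, by 0.68, neither past the test (limma, adjusted p = 0.0831 and 0.0710). The falls were of Slc7a6, by 1.27, and of Slc7a10 and Slc6a6, which were not detected at 60 min and were at least 1.21-fold and 1.67-fold lower.

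Of 24 tested targets of the amino acid response factor ATF4 and synthetases, 2 rose, Eprs1 and Atf4 itself (1666 and 1779.9 in the controls and 3332 at 60 min). Up to 5 rose under the other settings. The synthetases Cars1, Yars1 and Iars1 differed by 0.78, 0.63 and 0.60 and did not pass. Translation factors gave 5 rises and 3 falls among 37, a share near the 24% of all tested genes, and up to 8 and 6 under the other settings. Eif1a, which scans for the start codon, read 109 and 116 in the controls and 269 at 60 min and rose by 1.80, and Eif5a rose by 1.13. Eef2k, the kinase that slows elongation, fell by 1.05. Of 61 ribosomal protein genes 5 rose and 1 fell, a share below that of all tested genes, and up to 10 and 5 under the other settings. Since many of them have near-identical copies their probes may read more than 1 locus.

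Ribosome assembly genes had 7 rises and 3 falls among 39, a share near the 24% of all tested genes. The nucleolar helicase Ddx21 read 149.6 and 213 in the controls and 528 at 60 min, the nucleolar chaperone Npm1 read 588 and 752 in the controls and 2184 at 60 min and the pre-rRNA processing factor Utp15 read 83.7 and 83.8 in the controls and 170.4 at 60 min, with differences of 1.91, 1.79 and 1.81. Against these, nucleolin, Ncl, read 1213 and 1007 in the controls and 478 at 60 min and fell by 1.30. In the polyamine pathway 4 of 14 genes rose: Sat1, which acetylates polyamines for export (718 and 607 in the controls and 2296 at 60 min), the antizyme Oaz2, the antizyme inhibitor Azin1 and the lysosomal polyamine exporter Atp13a2. Odc1, the ornithine decarboxylase that isoproterenol is known to induce in this gland later on, differed by 0.44 (limma, adjusted p = 0.178).

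Of 45 tested genes for protein entry into the endoplasmic reticulum (ER) and for the COPII and COPI vesicles that link it with the Golgi, 12 (26.7%) rose by limma and 0 fell. At an unadjusted p under 0.05 these counts were 20 and 2, beside 4487 of all 10495 tested probes in either direction. Under the alternatives that keep a detection filter 12 to 16 rose and 0 to 2 fell. The median was 0.42. By size 11 rose against both controls. With the 2-fold condition alone, 7 rose against control 2 and 12 against control 1. The COPI coat subunit Copz1 read 149 and 159.6 in the controls and 436 at 60 min, and the GTPase Arf4 read 2452 and 3146 in the controls and 9100.0 at 60 min. Both were above each control by more than the controls differed. The COPII coat proteins Sec24a, Sec31a and Sec13 rose by 1.40, 1.22 and 0.91, and Sar1b, the GTPase that starts this coat, by 1.10. On the COPI side Copg1 and Arf1 rose by 1.20 and 1.18. The cargo receptor Lman1, the SNARE Sec22b, the oligosaccharyltransferase subunit Ddost and the signal recognition particle protein Srp19 rose by 1.10, 1.06, 1.16 and 0.92. The translocon subunit Sec61b differed by 1.09 without passing (limma, adjusted p = 0.0702).

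Genes of the unfolded protein response rose in part, with 7 rises and 1 fall among 26. Derl3, which helps export misfolded proteins from the ER, read 369 and 449 in the controls and 1449 at 60 min and rose by 1.97. The eIF2 alpha phosphatase subunit Ppp1r15a, the co-chaperone Dnajb9 and the ER protein Creld2 rose by 1.68, 1.60 and 1.58, and the lectin chaperone Canx by 1.23. Hspa5, the major ER chaperone BiP, differed by 0.53 (limma, adjusted p = 0.235). Xbp1, the factor that induces much of this list, read 11836 and 11525 in the controls and 6704 at 60 min and fell by 0.81. Among glycosylation enzymes 4 of 23 rose, of which B4galt1 and B3gnt2 were detected at 60 min alone and were at least 2.32-fold and 2.21-fold higher, and 2 fell, among them the sialyltransferase St6gal1 by 1.16. Where detection on 2 arrays was required, 2 of 20 rose.

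Of 41 tested genes of the secretory granules and their SNARE fusion machinery 4 rose and 2 fell. Scin, the actin-severing protein scinderin, read 101 and 124 in the controls and 299 at 60 min and rose by 2.00, and the endosomal GTPase Rab5a rose by 1.06. Of 22 secretory protein genes 1 rose and 4 fell, a share near the 24% of all tested genes, and 8 of them lay above 14 log2 units where the scale is compressed. Oprpn, a proline-rich opiorphin precursor, read 2108 and 2647 in the controls and 7303 at 60 min and rose by 1.65. Spt1, a salivary protein gene, read 606 and 2570.2 in the controls and 93.3 at 60 min, the largest fall of any named gene at 4.74 ± 0.88, with controls 2.18 log2 units apart and a call that the robust prior lost. Lcn2 and Cst3, a lipocalin and the cystatin C protease inhibitor, fell by 1.55 and 1.33, and Scgb1b30 differed by -2.78 (limma, adjusted p = 0.0580).

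Transport of fluid and ions had 1 rise and 4 falls among 35, a share below that of all tested genes, with up to 9 falls under the other settings. The alpha-1A adrenergic receptor Adra1a read 145 and 231 in the controls and 707 at 60 min and rose by 2.32 ± 0.42. The calcium-activated potassium channel Kcnn4, which acinar cells use during fluid secretion, read 14402 and 14842 in the controls and 5769.7 at 60 min and fell by 1.35 ± 0.21. The sodium channel subunit Scnn1b, a ductal gene, fell by 1.13, and the sodium-proton exchanger Slc9a3 and the potassium channel Kcnq1 were each undetected at 60 min and at least 1.82-fold lower, the former without a call in the authors' deposited values. Aqp5, the acinar water channel, differed by -0.18 (limma, adjusted p = 0.540).

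**Figure D3:**
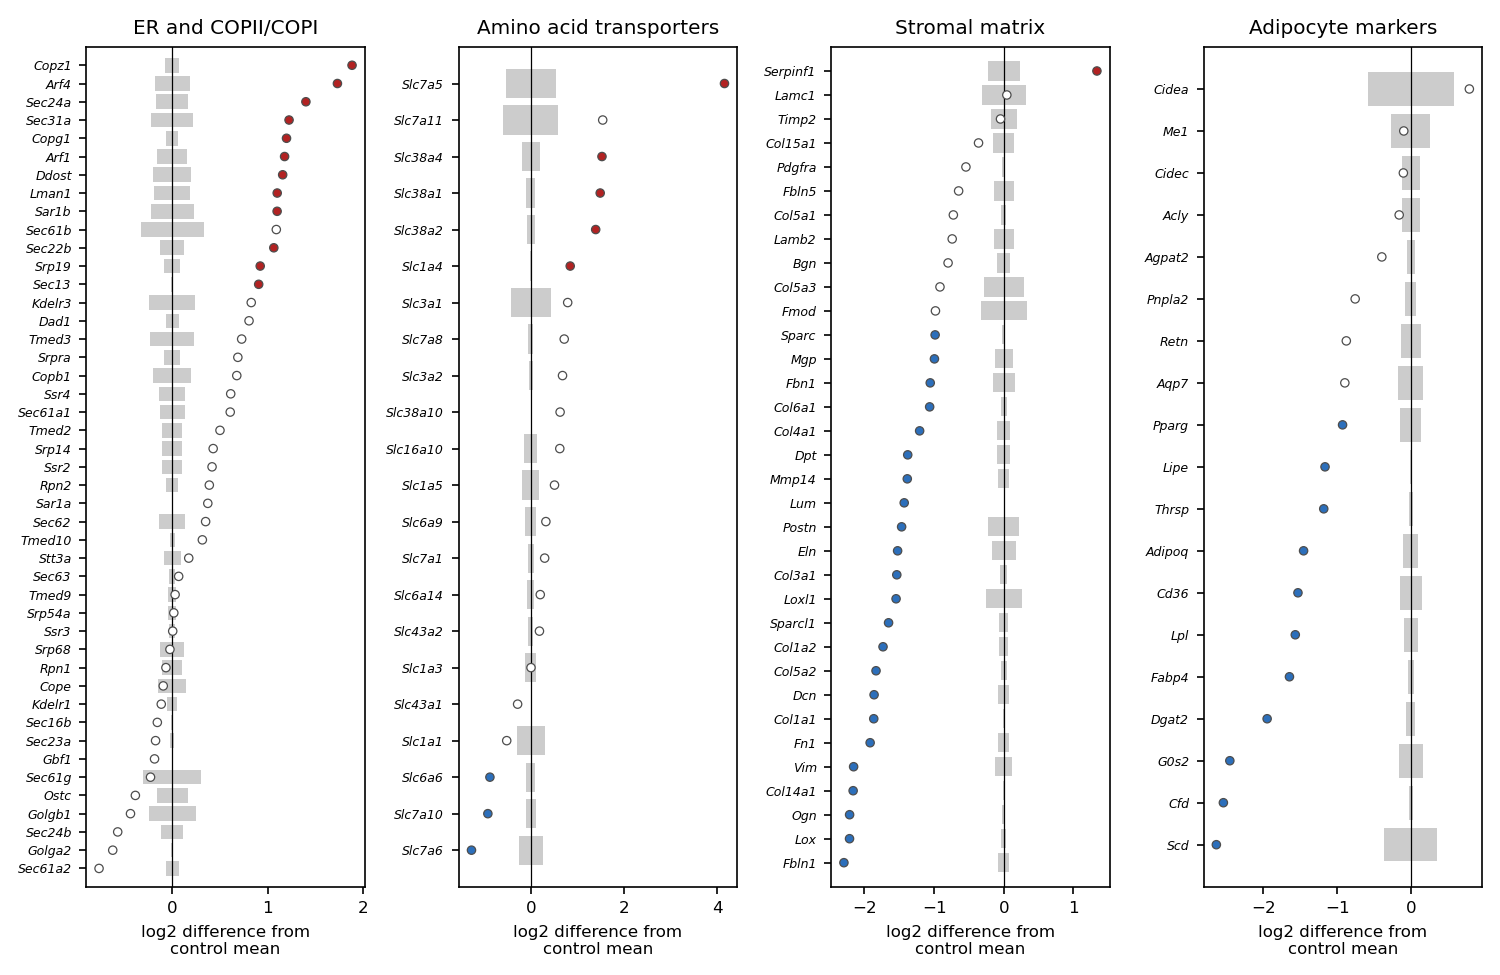
Log2 difference at 60 min from the control mean for every tested member of 4 gene lists, with the grey bar spanning both controls and filled points passing limma's threshold (red higher, blue lower). The 12 called ER and vesicle genes lie 0.91 to 1.88 units to the right of their control mean, and the called stromal and adipocyte genes lie to the left, except Serpinf1.

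Among inflammatory genes, the chemokine Cxcl1 read 129 and 138 in the controls and 403 at 60 min and rose by 2.08. The chemokine Ccl20 read 79.5 and 92.7 in the controls and 169.9 at 60 min and rose by 1.73. Others fell, including the stromal chemokine Cxcl12 (627 and 639 in the controls and 225 at 60 min) by 1.72, the alarmin Il33 by 1.62 and Cx3cl1 by 1.22. The list had 6 rises and 6 falls among 28, and 3 rises and 6 falls among 23 where detection on 2 arrays was required. Interferon-induced and MHC class I genes had 7 falls and 0 rises among 28 by limma. At an unadjusted p under 0.05 these counts were 16 and 0, beside 4487 of all 10495 tested probes in either direction. The list's median was -0.75. That median was -0.94 against control 1 and -0.53 against control 2, and control 2 minus control 1 was itself -0.42 at the median. Mx2, an antiviral GTPase, was at least 3.68-fold lower, Rtp4 read 249 and 199 in the controls and 89.0 at 60 min, and the class I gene RT1-S3, whose probe may read close relatives, fell by 1.60. The inducible proteasome subunit Psmb8 fell by 1.38. Psmb9, its partner, was undetected at 60 min and at least 2.49-fold lower, though uncalled in the authors' deposited values. Of 41 proteasome genes 3 fell, these 2 and Psme1.

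Falls were frequent among marker genes of fat, stromal matrix and endothelium. In a whole gland fewer cells of a type and less RNA per cell cannot be told apart. Adipocyte markers had 11 falls (57.9%) and 0 rises among 19 by limma. At an unadjusted p under 0.05 these counts were 14 and 0, beside 4487 of all 10495 tested probes in either direction. The list's summed intensities were 15288 and 14901 in the controls and 6116 at 60 min. The lipogenic desaturase Scd read 2056 and 1268 in the controls and 300.1 at 60 min, adipsin Cfd read 2508 and 2599 in the controls and 479 at 60 min and the lipolysis inhibitor G0s2 read 1500.5 and 1869 in the controls and 345 at 60 min. Scd fell by 2.64, Cfd by 2.54 and G0s2 by 2.45, each below both controls. In the single rats taken at 10 and 30 min Scd read 999.9 and 1503, Cfd 945 and 2920 and G0s2 1485 and 1691. All 3 were thus higher at 30 than at 10 min, and what part differences between single rats have was not tested. The fatty acid carrier Fabp4 (1388 and 1318 in the controls and 465 at 60 min), the lipase Lpl and the transporter Cd36 fell by 1.65, 1.57 and 1.53. Adipoq, adiponectin, was at least 2.24-fold lower. Whether the treated rat's sample held less fat was not tested.

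Stromal matrix genes had 23 falls (67.6%) and 1 rise among 34, with a median of -1.38, which was -1.37 against control 1 and -1.27 against control 2. Their summed intensity was 39686 and 37956 in the controls and 16129 at 60 min. The fibrillar collagen Col1a1 read 1635 and 1657 in the controls and 487 at 60 min, Col3a1 read 1033 and 1105 in the controls and 400.3 at 60 min and the small proteoglycan Dcn read 2570.2 and 2853 in the controls and 780.4 at 60 min. The controls were close together for these genes and the treated rat stood below both. Fibulin Fbln1, the crosslinking enzyme Lox, osteoglycin Ogn and vimentin Vim fell by 2.29, 2.21, 2.21 and 2.16. Fbln1 read 318 and 289 in the controls, 139 and 174 in the single 10 and 30 min rats and 101 at 60 min. Loxl1, a relative of Lox, fell on both of its probes, by 1.55 on one and, on the other, which was not detected at 60 min, to at least 2.24-fold lower. Serpinf1, an antiangiogenic serpin of stromal cells, was the exception and rose by 1.34.

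Endothelial markers had 8 falls and 0 rises among 15 by limma, and a median of -1.12. At an unadjusted p under 0.05 the counts were 11 and 1, beside 4487 of all 10495 tested probes in either direction. Vwf, the von Willebrand factor, was at least 3.64-fold lower, and Egfl7, Tie1 and Plvap, all of vessel lining, fell by 1.83, 1.32 and 1.30. Myeloid and mast cell markers had 4 falls among 11, including the mast cell chymase Cma1, at least 3.78-fold lower, and the complement subunit C1qc, by 1.32. The contractile list of myoepithelial and smooth muscle cells had 2 falls among 9, Smtn, which was uncalled in the authors' deposited values, and Tagln. Nerve and Schwann cell genes were divided, 2 up and 3 down of 8, with Cdh19 and Sox10 up by 1.89 and 1.18 and Gfra3 and Pmp22 down by 1.71 and 1.32. Of 13 ductal genes 2 rose and 3 fell. The keratins Krt19 and Krt7 fell by 1.32 and 1.14, while the kallikrein Klk1c2 and the factor Elf5 rose by 1.56 and 1.05. Lymphoid markers gave 1 rise among 11, the chemokine receptor Ccr7, and red cell genes 1 rise among 10, Hbe1.

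**Figure D4:**
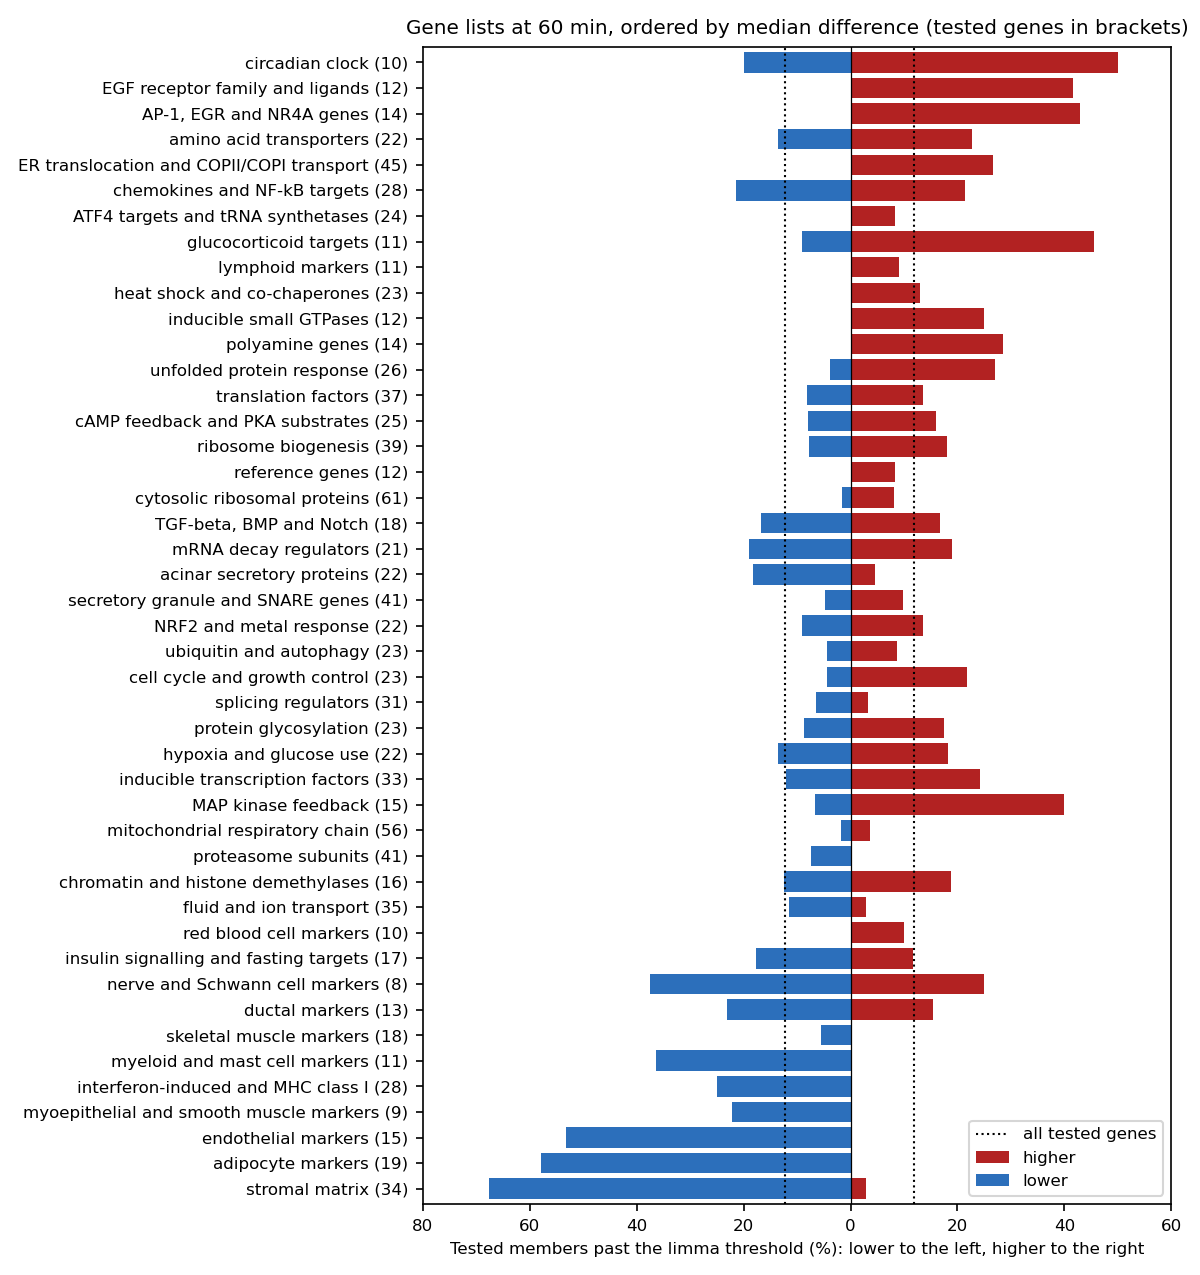
Share of each list's tested genes (percent, number tested in brackets) that fell (bars to the left) or rose (bars to the right) by limma, ordered by the list's median difference, with dotted lines at the shares of all tested genes, 12.2% and 11.8%. Stromal matrix, adipocyte and endothelial markers stand at the lower end with 67.6%, 57.9% and 53.3% fallen.

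The remaining leading falls were of varied genes. Car3, carbonic anhydrase III of muscle and fat, read 2794 and 2461 in the controls and 309 at 60 min and fell by 3.30 ± 0.22, with controls close together, and was the 1 called gene of the 18 muscle markers. The carboxylesterase Ces1d was at least 5.98-fold lower and the procollagen peptidase Adamts2 at least 5.22-fold lower, both undetected at 60 min. The F-box protein gene Fbxl20 read 675 and 519 in the controls and 120.2 at 60 min, the DNA repair gene Rad52 read 302 and 300.5 in the controls and 92.8 at 60 min and the cysteine dioxygenase Cdo1 read 387 and 376 in the controls and 114 at 60 min. These 3 fell by 2.93, 2.52 and 2.35. The complement gene C4b (1273 and 848 in the controls and 249.7 at 60 min), the muscle-linked gene Mss51 (361 and 249 in the controls and 95.9 at 60 min) and Tmem140 (249 and 232 in the controls and 88.0 at 60 min) completed the 15 largest falls, and Tmem140 fell on both of its probes. Against the nearer control the smallest of the 15 changes was 3.96-fold. In the single rats taken at 10 and 30 min Car3 read 1326 and 2979, C4b 306 and 686 and Cdo1 204 and 320, each higher at 30 min. Fbxl20 (452 and 201), Rad52 (287 and 182) and Mss51 (284 and 129) instead declined in order. What part differences between single rats have in these falls was not tested.

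Antioxidant and hypoxia genes changed singly. The NRF2 inhibitor Keap1 read 339 and 281 in the controls and 131 at 60 min, a fall of 1.65. The extracellular peroxidase Gpx3 read 862 and 869.9 in the controls and 309.9 at 60 min, a fall of 1.64. The autophagy receptor Sqstm1 rose by 1.13. The antioxidant list had 3 rises and 2 falls among 22, a share near the 24% of all tested genes. The hypoxia list had 4 rises and 3 falls among 22. The vasodilator Adm rose by 1.44, and the carbonic anhydrase Car9 and the glucose carrier Slc2a1 were detected at 60 min alone and at least 4.57-fold and 2.05-fold higher. Ankrd37 read 311 and 229 in the controls and 101 at 60 min and fell by 2.07. The insulin-dependent carrier Slc2a4 fell by 1.53 and Bnip3l by 0.80. Heat shock genes gave 3 rises among 23, with Hspb8, a small chaperone, up by 1.50.

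The respiratory chain had 2 rises and 1 fall among 56, up to 6 and 7 under the other settings, and splicing regulators 1 and 2 among 31. TGF-beta, BMP and Notch genes had 3 rises and 3 falls among 18, with the Notch ligand Jag1 at least 2.82-fold lower. Of 12 common reference genes 1 passed limma's test, the transferrin receptor Tfrc, which was not detected in the controls and lost its call in the authors' deposited values. By size B2m counted as a fall, with 13760 and 8482 in the controls and 4620 at 60 min. Its difference was -1.23 (limma, adjusted p = 0.0580). Actb differed by 0.36 and Gapdh, a gene also abundant in muscle, by -1.29 (limma, adjusted p = 0.327 and 0.0786).

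Some genes crossed the detection limit. At 576 probes only the 60 min array gave a detection p under 0.01, and 227 of these rose by limma. Another 728 probes were detected in both controls and not at 60 min, and 242 of these fell. Each set was chosen by the side where it was detected, so its direction was largely fixed beforehand. The counts are descriptions, beside 13.4% risen and 11.7% fallen of all tested probes. Among named genes seen at 60 min alone, Lmbr1 was at least 6.39-fold higher, the endocytic adaptor Snx18 at least 5.11-fold and the protease inhibitor Pzp at least 4.18-fold. Among those seen in the controls alone the nuclear exporter Xpo4 was at least 3.62-fold lower and Cyyr1 at least 3.26-fold. These bounds set the brighter side against the lowest detected signal, or the dim probe's own signal where that was higher. They depend on the background correction, and ratios of the printed intensities can be smaller.

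Probes of 1 gene did not always move together. Of 134 genes with several tested probes 38 had a called probe, in 28 of these all probes had the same sign, and in 4 (Crem, Dusp8, Loxl1 and Tmem140) all were called one way. Zyx, a focal adhesion gene named here after its values were seen, had 1 probe called higher, by 1.43, and the other called lower, undetected at 60 min and at least 1.86-fold lower. Probes without a gene symbol held some of the largest changes: of 2891 tested, 517 rose and 309 fell. The probe ILMN_1376762 read 71.3 and 217 in the controls and 3625 at 60 min, a rise of 5.80 that exceeded the rise of Crem, and ILMN_1375583 rose by 5.07. ILMN_1362029 read 1415 and 1164 in the controls and 113 at 60 min, a difference of -4.27, and ILMN_1356548 one of -3.10. What these probes target is not named in the annotation used here.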

How the data were processed

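Total RNA of the parotid glands of each rat was amplified to biotin-labelled cRNA and hybridised to an Illumina rat bead array, per the labels' protocols. The deposited table gives an intensity and a detection p-value per probe and is described as non-normalized, yet the sorted values of its 5 arrays differed by a median of only 0.133%, so the authors appear to have equalised the arrays before deposit, which hides differences in total RNA or overall brightness. The authors' deposited series matrix holds log2 values, whose median was 6.00 on each array and which rank the probes exactly as the intensities do. The step between them is not given in the sources used here.

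Intensities were background-corrected from the detection p-values (neqc, offset 16), quantile normalized over the 5 arrays and tested with limma 3.58.1 in R 4.3.3 on the 2 controls and the 60 min array, with 1 residual degree of freedom and a prior of 3.90. The number of arrays limits the precision. Steps were tested on simulated data. Symbols came from the platform annotation: 13787 of 22517 probes had 1 symbol and 8730 none, and 13747 matched current rat genes. A gene with several probes stands by its brightest in a list. Named genes are the 15 largest rises and falls called by limma and by size, genes called on all their probes or crossing the detection limit, and members of 45 gene lists. The members and lists were chosen with earlier results of these data known. Genes undetected on 1 side are given as at least N-fold, from the brighter side's mean and the lowest detected signal, or the dim probe's own where higher. Such bounds hold on the background-corrected scale only. Alternatives were no or another background offset, other normalizations, the authors' deposited log2 values, other detection filters, other priors, a fit over 5 arrays, and either control left out. Rats are separate animals by their labels. Array positions and scan dates were not used here. No column of the tables was left unused by lack of a sample.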

Additional observations from a re-analysis of the deposited data

How the results depend on the processing

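Without the detection filter limma called 0 probes of 22517, 0 higher and 0 lower, while 5628 had an unadjusted p under 0.05. More probes were then adjusted for, and other causes were not tested. Under that setting the medians of the cyclic AMP list, the EGF receptor list and the small GTPase list changed sign, to -0.0011, -0.0499 and -0.00083, since more undetected genes entered. Under the other settings with a test, limma's count stayed between 2558 and 2990. The count by size was 1107 (739 higher, 368 lower) with no background correction, 1299 (832 and 467) with an offset of 50 and 1075 (709 and 366) in the authors' deposited log2 values, settings that shrink differences of dim probes. With 1 control left out there was no control gap, so only the 2-fold condition was applied and limma had no residual degree of freedom. That count ranged from 1950 to 2701 in all, 1138 to 1440 higher and 812 to 1261 lower. Counts within a list moved by more than 1.5 times in several lists when a detection filter was kept: acinar secretory proteins had 1 to 3 rises and 3 to 6 falls, ribosomal proteins 5 to 10 and 1 to 5, the respiratory chain 2 to 6 and 1 to 7, fluid and ion transport 1 to 2 and 4 to 9, translation factors 5 to 8 and 3 to 6, and proteasome subunits 0 to 3 and 3 to 4. Of 188 named gene differences, 5 lost the call with a robust prior, 7 in the authors' values, 4 with no background correction and 3 with an offset of 50, and 157 without the detection filter. No paired analysis was possible because the labels give no pairing between rats and the 60 min group holds 1 rat. Dim probes near the background and the brightest probes near the top of the scale limit what these arrays can show.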
